A study of Rattus norvegicus with 6 samples.

Results

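Interferon-stimulated genes are the genes that cells switch on when interferons bind their receptors. They were followed here in rat liver through 42 probe sets, which represent 33 of the 37 genes of the set. A probe set is a group of short array probes that together give 1 signal for a transcript. Members were taken by symbol: every probe set that the array annotation assigns to exactly 1 gene, where that gene is in the set, out of 31099 probe sets on the array and 14217 genes named this way. Array signals of Oasl2, Gbp5, Trim21 and Rigi were not analysed here. All 42 probe sets passed the filter on low signal, so no member with a probe set dropped out. A further probe set that the annotation shares between Igtp, Irgm2 and another family member was not used.

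The samples were livers of hypercholesterolemic rats on 1-colour Affymetrix arrays, with 3 samples in each of 2 groups. All rats ate a fat-rich diet for 30 d and stayed on it for another 30 d, in which each received 1 ml of saline by stomach tube every day. In the probiotic group the saline carried live Lactobacillus casei Zhang, and in the high-fat group, the control, it carried nothing. There was no group on a normal diet, and the sources used here give no strain, sex or age. The labels do not state that each sample came from its own rat, so p-values measure the spread between these samples. In bulk liver, fewer cells of a type and less RNA per cell cannot be told apart.

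Type I interferons act through a receptor whose kinases activate a complex that holds STAT2 and IRF9. It binds the interferon-stimulated response element, ISRE, in front of genes for antiviral proteins such as MX, OAS and IFIT. Interferon gamma, made by T and NK cells, acts through the gamma-activated site, GAS, and drives IRF1, the immunity-related GTPases and the chemokines CXCL9 to CXCL11. In liver, hepatocytes and Kupffer cells, the resident macrophages, both respond to interferons.

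Sequence around the starts of these genes was examined for the ISRE and the GAS. RefSeq promoter windows on build GRCr8, from 250 bases before to 50 after the start, were matched by symbol for 29 of the 37 genes. They were searched on both strands for an ISRE core, written GAAA, any 2 bases and GAAA (TTTC, any 2 bases and TTTC on the other strand), and for a GAS core, written TTC, any 3 bases and GAA, which is its own reverse complement. The ISRE core was present in 19 of the 29 windows (65.5%), against 3.92% of all 33469 windows. The GAS core was present in 10 (34.5%), against 8.87% of all windows. Both were present in 6 (20.7%), against 0.514%. The 19 include Oasl2, Gbp5 and Trim21, whose array signals were not analysed. Of the 26 windows of genes with array signals, 16 had the ISRE core, 10 the GAS core and 6 both. The windows of Stat2, Mx1, Oasl, Herc6, Parp9 and Ifi35 held neither core, and Mx2, Ifit1 and Ifit2 were among the genes without a window. A match of letters is a description and does not show that a factor binds there.

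The windows of 4 members whose probiotic values all lay below the high-fat values are shown because the motifs lie in them side by side or close to the start. They are written 5′ to 3′ on the strand of the gene, with motif matches in capitals. In Igtp and Irgm the GAS core stands 2 bases before the ISRE core, and in Ifitm3 it follows the ISRE core after 1 base. In Dtx3l the ISRE core lies just after the start. The window of Parp9, which lies next to Dtx3l on the opposite strand, held no match.
Igtp (chr10:42874797-42875046, + strand, bases -250 to -1): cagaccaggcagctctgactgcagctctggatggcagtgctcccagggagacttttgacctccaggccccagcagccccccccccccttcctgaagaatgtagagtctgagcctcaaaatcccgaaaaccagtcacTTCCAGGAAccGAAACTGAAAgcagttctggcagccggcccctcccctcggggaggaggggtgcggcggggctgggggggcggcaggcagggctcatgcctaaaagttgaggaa
Irgm (chr10:33742579-33742828, - strand, bases -250 to -1): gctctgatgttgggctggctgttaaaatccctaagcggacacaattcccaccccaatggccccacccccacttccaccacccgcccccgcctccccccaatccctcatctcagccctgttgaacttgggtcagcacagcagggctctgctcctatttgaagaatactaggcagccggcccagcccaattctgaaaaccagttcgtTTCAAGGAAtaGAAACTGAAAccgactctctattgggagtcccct
Ifitm3 (chr1:205541759-205542008, - strand, bases -250 to -1): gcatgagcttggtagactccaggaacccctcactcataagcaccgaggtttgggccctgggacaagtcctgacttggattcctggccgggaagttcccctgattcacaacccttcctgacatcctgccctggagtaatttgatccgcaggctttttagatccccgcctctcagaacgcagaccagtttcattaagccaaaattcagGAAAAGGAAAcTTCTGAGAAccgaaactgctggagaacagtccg
Dtx3l (chr11:78320005-78320254, + strand, bases -220 to 30): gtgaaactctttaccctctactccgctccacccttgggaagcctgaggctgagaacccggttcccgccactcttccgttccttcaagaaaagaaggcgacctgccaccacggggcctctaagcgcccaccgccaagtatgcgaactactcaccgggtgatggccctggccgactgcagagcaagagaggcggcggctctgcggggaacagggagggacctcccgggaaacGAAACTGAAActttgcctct

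The same motifs were present in members whose groups overlapped, as the following 50-base stretches show. Parp14 repeats the order and spacing of Igtp and Irgm, and in Bst2 the GAS core overlaps an ISRE core. Oas1a holds a pair of overlapping ISRE cores. Irf1 has a GAS core and no ISRE core in its window, while Irf7, Ifit3, Rsad2, Gbp2 and Ifih1 have an ISRE core alone.
Parp14 (chr11:78408032-78408081, + strand): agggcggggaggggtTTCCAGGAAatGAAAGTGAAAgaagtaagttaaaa
Bst2 (chr16:18255070-18255119, - strand): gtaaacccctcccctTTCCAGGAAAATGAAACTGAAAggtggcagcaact
Oas1a (chr12:41330410-41330459, + strand): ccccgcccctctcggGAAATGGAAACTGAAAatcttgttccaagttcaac
Irf1 (chr10:38417778-38417827, + strand): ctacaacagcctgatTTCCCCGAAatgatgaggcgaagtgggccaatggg
Irf7 (chr1:205800058-205800107, - strand): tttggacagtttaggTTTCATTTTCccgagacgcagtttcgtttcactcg
Ifit3 (chr1:241527267-241527316, + strand): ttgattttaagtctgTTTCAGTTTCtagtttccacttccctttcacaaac
Rsad2 (chr6:48788233-48788282, - strand): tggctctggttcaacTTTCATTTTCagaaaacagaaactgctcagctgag
Gbp2 (chr2:234005681-234005730, + strand): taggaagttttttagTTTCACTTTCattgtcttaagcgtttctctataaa
Ifih1 (chr3:67683993-67684042, - strand): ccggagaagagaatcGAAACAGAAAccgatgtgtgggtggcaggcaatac
Of the 6 measured genes whose groups did not overlap, 5 had the ISRE core and 3 had both cores. Of the 20 measured genes with a window whose groups overlapped, 11 had the ISRE core and 3 had both.

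The deposited intensities had the same trimmed mean, 500.3, on every array, so this value cannot compare the arrays. Median signals ranged from 90.4 in high-fat sample 3 to 147.2 in high-fat sample 2. For Actb, 3′ control probes exceeded 5′ ones, a gap that grows as RNA shortens, by 2.11 to 3.01 on the log2 scale in the probiotic samples and 1.59 to 1.96 in the high-fat samples, without overlap. The same gap for Gapdh was 0.71 to 1.49 in the probiotic and 0.52 to 0.79 in the high-fat samples, which overlapped. Mean correlations of an array with the other arrays were 0.909 for high-fat sample 2 and 0.917 for probiotic sample 2, and 0.935 to 0.94 for the other arrays. The 6 measured markers of hepatocytes, the main cells of the labelled tissue, all lay above the 99.7th percentile of signal. Signals below are log2(intensity + 16) after quantile normalization, and a log2 difference is probiotic minus high-fat.

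Feeding of the bacterium was compared with saline alone to ask which liver transcripts differ, here among the interferon-stimulated genes. The set did not move as a block. Lower values in the probiotic group were found for the immunity-related GTPases Igtp and Irgm, the neighbouring genes Parp9 and Dtx3l and the membrane protein gene Ifitm3, each with no overlap between groups and an unadjusted p under 0.05. The chemokine genes all had differences below 0, but none had an unadjusted p under 0.05. The transcription factors and most antiviral effectors, among them Mx1, Mx2, the Oas genes and the Ifit genes, had differences in both directions that lay within the spread between samples. No member passed limma's test adjusted over all probe sets (adjusted p of 0.726 to 0.997), against 4 of 18625 probe sets tested (0.0215%), all lower.

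Over the 42 probe sets the median log2 difference was -0.06, with 22 below 0 (52.4%) and 20 above. Over all probe sets tested the median was 0.00 and 49.5% were below 0. At an unadjusted p under 0.05 in limma, 6 member probe sets were lower (14.3%), against 3.86% of all probe sets tested, and 1 was higher, against 2.99%. The 7 together compare with 6.85% of all probe sets tested. Groups did not overlap for 7 member probe sets, all lower in the probiotic group (16.7%), against 6.70% of all probe sets tested that were lower without overlap and 6.02% that were higher. The 6 at unadjusted p under 0.05 fell to 2 without high-fat sample 2 and probiotic sample 2, the arrays least like the rest, against 1.97% of all probe sets tested, and to 0 on adjusting for the Actb gap, against 1.43%. Under median centring in place of quantile normalization 4 member probe sets were lower without overlap, against 4.93% of all probe sets tested.

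**Figure D1:**
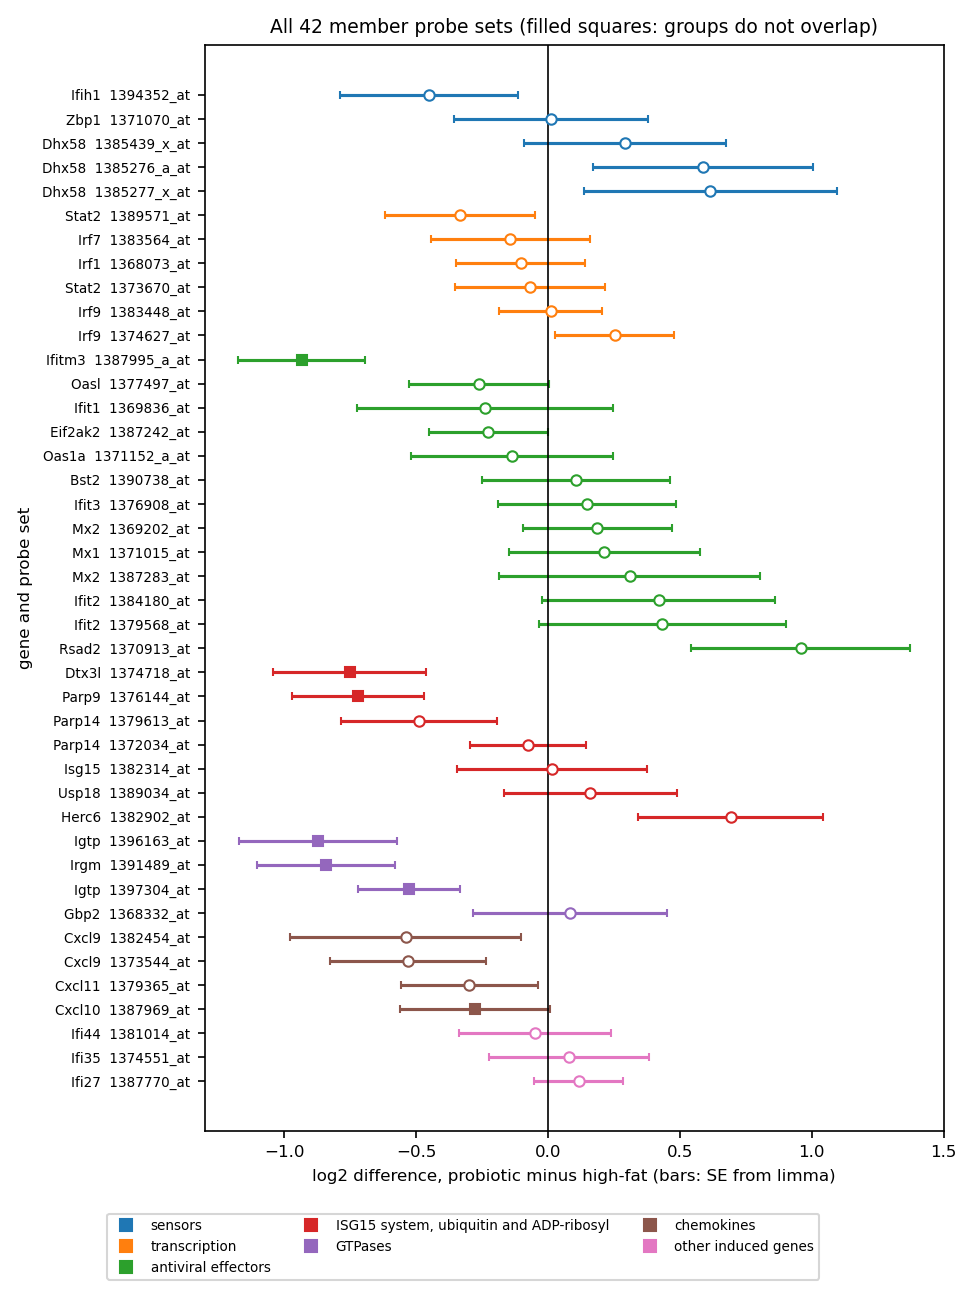
Log2 difference, probiotic minus high-fat, for each of the 42 member probe sets, grouped by role, with bars giving the SE from limma; filled squares mark the 7 probe sets whose groups do not overlap. All 7 lie to the left of 0, between -0.93 and -0.28, and the highest point is Rsad2 at 0.96.

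The GTPases had the lowest median difference of the 7 roles. Immunity-related GTPases load onto the membranes around intracellular microbes and are classic targets of interferon gamma. Of 4 probe sets for 3 genes, 3, from Igtp and Irgm, were lower without overlap and at an unadjusted p under 0.05 in limma. Over all probe sets tested, 6.70% were lower without overlap and 3.86% were lower at that p. The median log2 difference of the 4 was -0.69. At that p, 2 of the 4 were lower under median centring, against 2.67% of all probe sets tested. On adjusting for the Actb gap 0 were, against 1.43%. Igtp had signals of 10.14, 9.94 and 10.41 in probiotic samples 1, 2 and 3 and of 10.69, 10.65 and 10.74 in high-fat samples 1, 2 and 3. The high-fat samples lay within 0.1 of each other, and every probiotic sample lay below them. The difference was -0.53 (SE 0.193, unadjusted p = 0.0221, adjusted p = 0.726 in limma), or 1.44-fold lower.

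A second Igtp probe set gave the same order of groups from a lower signal. It had 7.88, 7.45 and 7.54 in the probiotic samples and 8.44, 8.96 and 8.08 in the high-fat samples, with no overlap. The difference was -0.87 (SE 0.3, unadjusted p = 0.0167 in limma). The first Igtp probe set overlapped between groups under median centring (difference -0.47, unadjusted p = 0.162 in limma), and the second did not. On adjusting for the Actb gap the differences were -0.38 and -0.42, neither at an unadjusted p under 0.05.

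Irgm, another GTPase of the same family, had 8.999, 8.72 and 9.24 in the probiotic samples and 9.80, 10.23 and 9.46 in the high-fat samples. The lowest high-fat sample was number 3 and stood above the highest probiotic sample. The difference was -0.84 (SE 0.261, unadjusted p = 0.00976, adjusted p = 0.726 in limma), or 1.79-fold lower. It was -0.52 when both sample 2 arrays were left out and -0.43 on adjusting for the Actb gap (unadjusted p of 0.0778 and 0.261 in limma). Irgm2, a close relative outside the set, showed the same order, with 12.30, 12.48 and 12.86 in the probiotic and 13.06, 13.11 and 13.54 in the high-fat samples (difference -0.69, SE 0.196, unadjusted p = 0.00611 in limma). Genes of this family resemble each other, and signal shared between members was not tested. Gbp2, a guanylate-binding protein of a separate GTPase family, had a difference of 0.08 (SE 0.369), whose sign turned with the scaling.

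Parp9 and Dtx3l encode partners: Parp9 is an ADP-ribosyltransferase family member that works in a complex with the ubiquitin ligase Dtx3l. Parp9 had 10.07, 9.93 and 10.18 in the probiotic samples and 10.77, 11.26 and 10.31 in the high-fat samples. The gap between the groups was narrow, between probiotic sample 3 and high-fat sample 3, and high-fat sample 2 was the highest. The difference was -0.72 (SE 0.252, unadjusted p = 0.0179, adjusted p = 0.726 in limma), or 1.65-fold lower. It was -0.42 when both sample 2 arrays were left out and -0.39 on adjusting for the Actb gap (unadjusted p of 0.12 and 0.316 in limma).

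Dtx3l had 10.33, 9.51 and 10.54 in the probiotic samples and 10.67, 11.23 and 10.75 in the high-fat samples. Probiotic sample 2 was well below the other arrays and high-fat sample 2 was the highest. The difference was -0.75 (SE 0.29, unadjusted p = 0.028 in limma), or 1.68-fold lower. It was -0.44 without probiotic sample 2, -0.27 when both sample 2 arrays were left out and -0.02 on adjusting for the Actb gap. Under median centring its groups overlapped (difference -0.70).

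Parp14, a mono-ADP-ribosyltransferase encoded on the same chromosome, did not show the same pattern in its brighter probe set. That probe set had 10.14, 10.22 and 10.79 in the probiotic and 10.51, 10.35 and 10.53 in the high-fat samples, with the highest value in probiotic sample 3 (difference -0.08, SE 0.221). The dimmer one had 8.75, 8.02 and 8.96 against 9.01, 9.36 and 8.82, a difference of -0.49 (SE 0.295) that was 0.16 on adjusting for the Actb gap.

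Ifitm3, which blocks the entry of viruses from endosomes, had the lowest p of the set. Its signals were 12.05, 11.15 and 12.03 in the probiotic samples and 12.66, 12.65 and 12.73 in the high-fat samples. The high-fat samples were nearly level, and probiotic sample 2 lay far below the other probiotic samples. The difference was -0.93 (SE 0.241, unadjusted p = 0.00347, adjusted p = 0.726 in limma), or 1.91-fold lower, and -0.36 on adjusting for the Actb gap. Its relatives outside the set had differences of -0.28 (Ifitm1, SE 0.205) and -0.50 (Ifitm2, SE 0.299), neither at an unadjusted p under 0.05. Near-identical copies in this family may share signal.

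**Figure D2:**
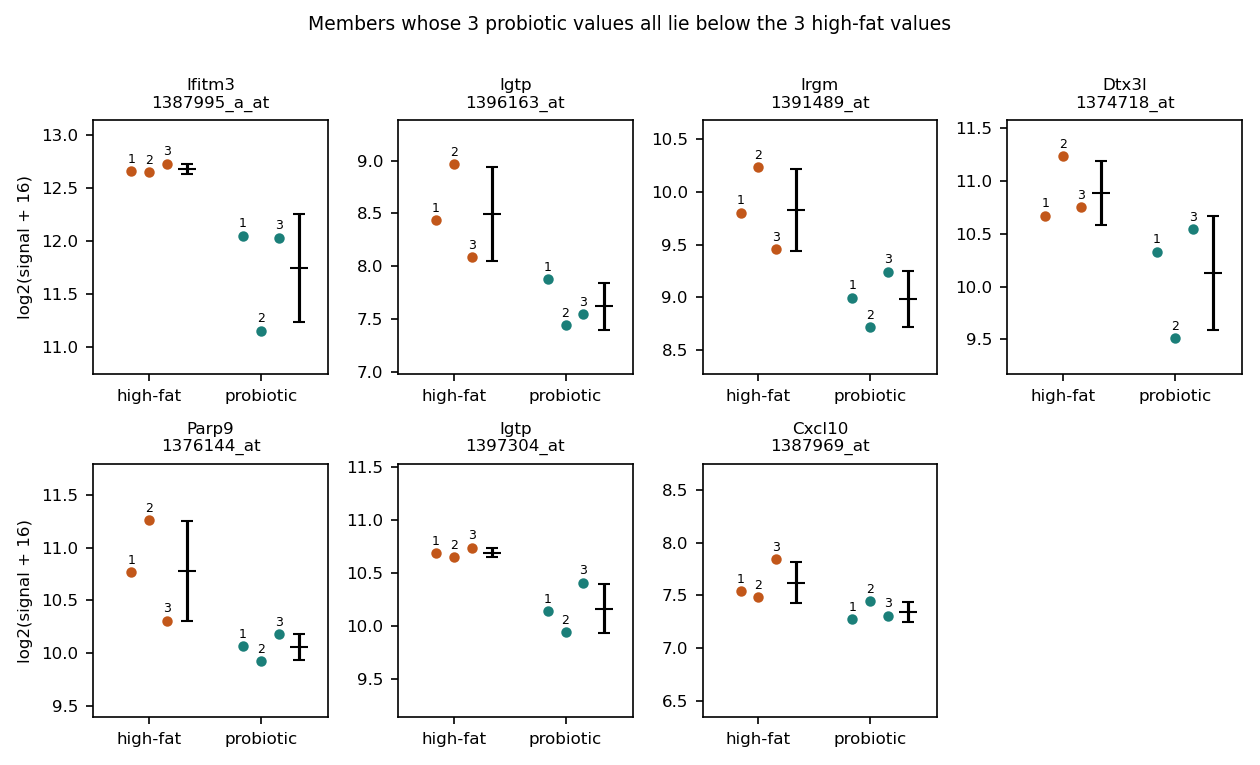
Normalized signal, log2(signal + 16), of the 7 probe sets without overlap between groups: each numbered point is 1 sample, and the bar beside the points gives the mean and SD of 3 samples. All panels span like heights; the high-fat values of Ifitm3 and of the brighter Igtp probe set lie close together, while those of Parp9, Irgm and Dtx3l spread with sample 2 on top.

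The chemokine genes Cxcl9, Cxcl10 and Cxcl11 recruit T cells through the receptor CXCR3. All 4 of their probe sets were below 0, with a median log2 difference of -0.42, and 0 had an unadjusted p under 0.05. Cxcl10 had 7.28, 7.45 and 7.31 in the probiotic and 7.54, 7.48 and 7.84 in the high-fat samples. The groups were separated only by the narrow gap between probiotic sample 2 and high-fat sample 2, and the difference of -0.28 (SE 0.284, unadjusted p = 0.353 in limma) was below its standard error. Under median centring the groups overlapped.

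Cxcl9 had 8.68, 8.53 and 8.56 in the probiotic and 9.01, 8.62 and 9.72 in the high-fat samples. Only high-fat sample 2 fell within the probiotic range, and high-fat sample 3 was the highest (difference -0.53, SE 0.295, unadjusted p = 0.104 in limma; -0.23 without high-fat sample 3). Its second probe set had 8.08, 6.98 and 8.96 against 8.52, 8.47 and 8.64, with probiotic samples on either side of all controls (-0.54, SE 0.438). That value was -0.03 without probiotic sample 2. Cxcl11 had 10.56, 10.94 and 11.27 against 10.75, 11.45 and 11.46, which overlapped (-0.30, SE 0.259).

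The transcription factors that carry the interferon signal did not differ between groups by more than the spread. Of their 6 probe sets, 4 were below 0 and 0 had an unadjusted p under 0.05, with a median log2 difference of -0.09. Irf1, the main factor induced by interferon gamma, had 9.47, 9.33 and 9.37 in the probiotic and 9.14, 9.92 and 9.42 in the high-fat samples. The probiotic samples lay between the extremes of the controls (difference -0.10, SE 0.245). Irf7, which amplifies type I interferon production, had 9.11, 8.86 and 9.93 against 9.18, 9.69 and 9.46, with the highest and the lowest value both in the probiotic group (-0.14, SE 0.302).

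Irf9, the DNA-binding part of the type I complex, differed little between arrays in its brighter probe set. That probe set had 9.95, 9.79 and 10.11 in the probiotic and 9.79, 10.04 and 9.99 in the high-fat samples (difference 0.01, SE 0.197). The second had 9.74, 9.60 and 9.91 against 9.23, 9.46 and 9.805, which overlapped. Its difference was 0.25 (SE 0.224), and 0.12 to 0.40 over the alternatives. Stat2 had 10.11, 10.09 and 10.41 against 9.92, 11.07 and 10.62, so that high-fat sample 1 was the lowest array and sample 2 the highest (-0.33, SE 0.285). Leaving out high-fat sample 2 gave -0.07 and leaving out high-fat sample 1 gave -0.64, and a second probe set gave -0.07.

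**Figure D3:**
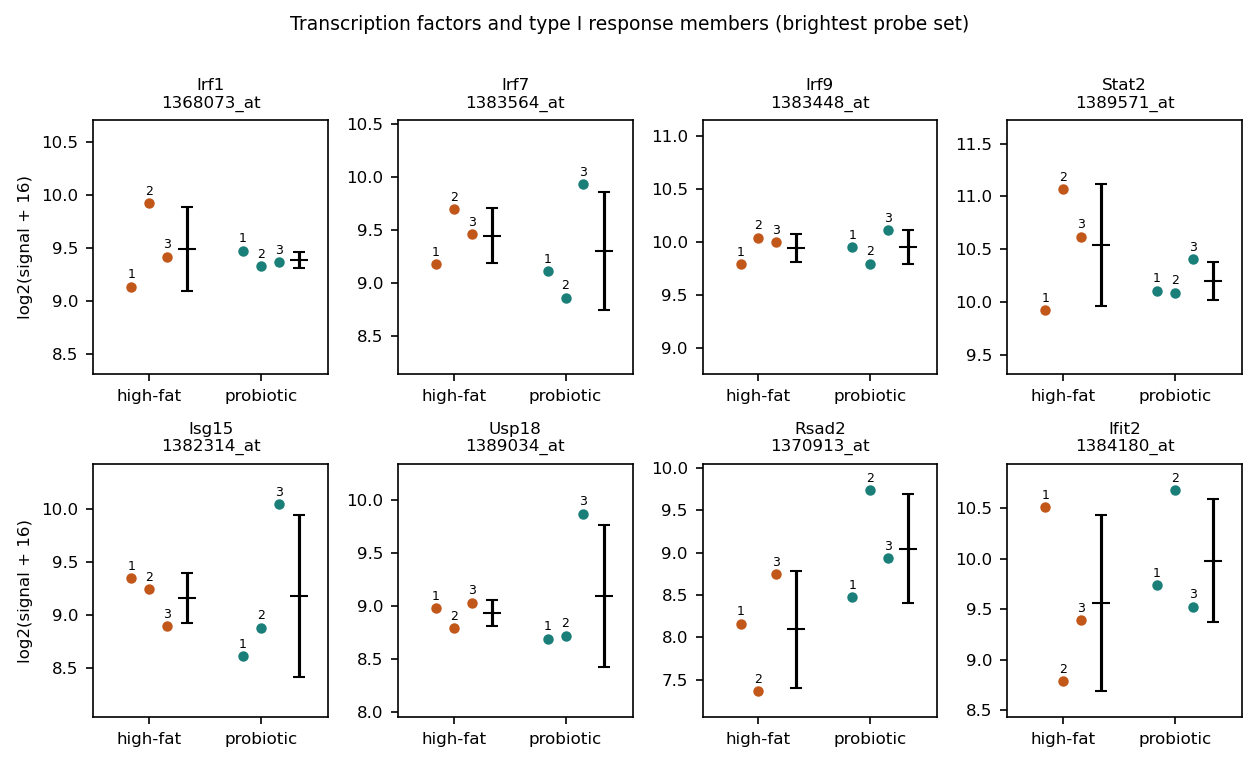
Normalized signal, log2(signal + 16), of 8 members by sample: the transcription factors in the top row and Isg15, Usp18, Rsad2 and Ifit2 in the bottom row, with the mean and SD of 3 samples beside the points. Groups overlap in every panel, and the Isg15 and Usp18 values of probiotic sample 3 stand above all other arrays.

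Antiviral effectors went both ways. Of 13 probe sets for 11 genes, 5 were below 0 and 8 above, with a median log2 difference of 0.15. Apart from Ifitm3, only Rsad2 had an unadjusted p under 0.05. Rsad2, or viperin, makes a chain-terminating nucleotide, and it had 8.48, 9.74 and 8.93 in the probiotic and 8.16, 7.37 and 8.75 in the high-fat samples. Probiotic sample 2 was the highest and high-fat sample 2 the lowest, and high-fat sample 3 stood above probiotic sample 1. The difference was 0.96 (SE 0.415, unadjusted p = 0.0454, adjusted p = 0.726 in limma), or 1.94-fold higher. It was 0.25 when both sample 2 arrays were left out and -0.15 on adjusting for the Actb gap.

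The RNA-binding Ifit genes had differences of -0.24 for Ifit1, 0.42 and 0.43 for Ifit2 and 0.15 for Ifit3. Ifit2 differed widely within groups: 9.74, 10.68 and 9.53 in the probiotic and 10.51, 8.79 and 9.39 in the high-fat samples. The highest arrays were probiotic sample 2 and high-fat sample 1, and the second Ifit2 probe set was highest in the same arrays. Ifit1 gave the lowest percentile of signal in the set (44.5).

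The dynamin-like GTPases Mx1 and Mx2 had differences of 0.21, 0.19 and 0.31 over 3 probe sets, and all 3 were highest in probiotic sample 3 and lowest in high-fat sample 2. The 2′-5′ oligoadenylate synthetase Oas1a, which activates RNase L, had -0.14 and its relative Oasl -0.26. Eif2ak2, the RNA-activated kinase PKR, had -0.23, and Bst2, which tethers budding viruses to the cell, had 0.11. The standard errors of these differences were 0.227 to 0.495, and their signs did not depend on the scaling. Some signs turned when a single sample was left out. Mx1 was -0.09 without probiotic sample 3, and Oas1a was 0.18 without probiotic sample 2. The dimmer Mx2 probe set was -0.16 without high-fat sample 2, and Bst2 was -0.37 without high-fat sample 3. The brighter Mx2 probe set, Oasl and Eif2ak2 kept their signs.

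The ISG15 system attaches the ubiquitin-like protein ISG15 to other proteins. Isg15 itself had 8.61, 8.88 and 10.05 in the probiotic and 9.35, 9.24 and 8.90 in the high-fat samples. Probiotic sample 3 was above and the other probiotic samples were below all controls (difference 0.01, SE 0.36, -0.41 without probiotic sample 3). Usp18, the protease that removes ISG15 and restrains the type I receptor, had 8.69, 8.72 and 9.87 against 8.98, 8.79 and 9.03. The same array stood out, and the difference of 0.16 (SE 0.328) was -0.23 without it. Herc6, a ligase for ISG15 in rodents, had 7.83, 7.19 and 7.84 against 7.29, 6.59 and 6.89. Only high-fat sample 1 and probiotic sample 2 crossed (difference 0.69, SE 0.351, unadjusted p = 0.0786 in limma).

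Sensors of foreign nucleic acid did not move together. Ifih1, or MDA5, which detects long double-stranded RNA, had 8.92, 8.49 and 8.15 in the probiotic and 8.30, 9.38 and 9.24 in the high-fat samples (difference -0.45, SE 0.337). High-fat sample 1 lay within the probiotic range, and without it the difference was -0.79. Dhx58, or LGP2, a regulator of that sensor, had 8.21, 8.50 and 8.56 against 8.80, 7.24 and 8.36, with the lowest value in high-fat sample 2 (0.29, SE 0.384, -0.16 without that sample). Its other probe sets gave 0.59 and 0.62. Zbp1, a sensor of Z-form nucleic acid, had 0.01 (SE 0.367), and its sign turned with the scaling.

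The 3 other induced genes had differences within 0.12 of 0. Ifi27 had 14.99, 14.81 and 14.84 in the probiotic and 14.52, 14.64 and 15.13 in the high-fat samples. The controls lay on either side of the probiotic samples (difference 0.12, SE 0.168). Ifi35, a partner of the signalling modulator Nmi, had 0.08 (SE 0.303) and Ifi44 -0.05 (SE 0.288).

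Member values also differed between arrays of a group. The highest value of a probe set was found in probiotic sample 3 for 14 of the 42 (33.3%, against 15.1% of all probe sets tested), in high-fat sample 3 for 11 (26.2%, against 11.5%) and in high-fat sample 2 for 10 (23.8%, against 23.8%). It was found in probiotic sample 1 for 0 (against 14.5%), in probiotic sample 2 for 3 (7.14%, against 20.4%) and in high-fat sample 1 for 4 (9.52%, against 14.7%). The 14 that peaked in probiotic sample 3 include Irf7, both Irf9 probe sets, Mx1, both Mx2 probe sets, Oas1a, Isg15, Usp18, Herc6 and 2 of the Dhx58 probe sets. No probe set of Igtp, Irgm or Gbp2 peaked there. The median deviation of the members from their own mean over arrays was -0.08, -0.23 and 0.15 in probiotic samples 1, 2 and 3 and 0.10, -0.00 and 0.16 in high-fat samples 1, 2 and 3. The controls lay within the range of the probiotic samples except high-fat sample 3, which was level with probiotic sample 3.

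**Figure D4:**
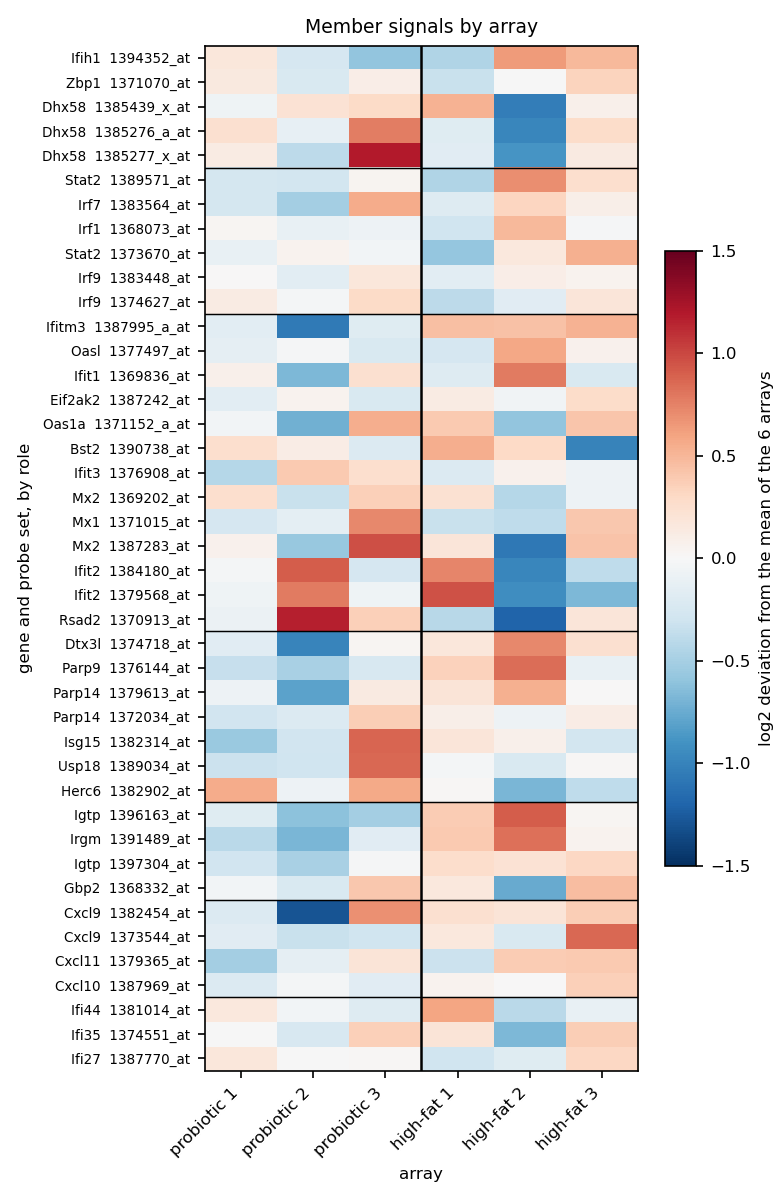
Deviation of each member probe set from its mean over the 6 arrays on the log2 scale, with red above and blue below the mean; rows are grouped by role and the vertical line parts the probiotic from the high-fat arrays. The rows of Igtp, Irgm, Parp9, Dtx3l and Ifitm3 are blue or near white on the left and red or near white on the right, with Parp9 in high-fat sample 3 slightly below its mean, while those of Mx2, Isg15, Usp18 and Ifit2 change from array to array.

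The list of remaining pathway genes held 76 symbols, with Sting1 also entered as Tmem173 and Cgas also as Mb21d1. Of these symbols, 60 were measured and 53 passed the signal filter. By the brightest probe set of each, 30 were below 0 and 23 above, with a median log2 difference of -0.08. At an unadjusted p under 0.05, 2 were lower (3.77%) and 0 higher, a share near the background of 3.86%, and 0 passed the adjusted test. They were Irgm2 and Myd88, the adaptor of most Toll-like receptors, which had 11.05, 10.71 and 10.90 in the probiotic and 10.84, 12.38 and 11.92 in the high-fat samples (difference -0.83, SE 0.342, unadjusted p = 0.0379 in limma). High-fat sample 1 lay within the probiotic range.

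The genes of interferon beta and gamma had low signals. Ifng, the gene of interferon gamma, had 5.21, 5.59 and 5.59 in the probiotic and 5.51, 4.22 and 5.21 in the high-fat samples, and Ifnb1 had 4.30, 4.24 and 4.81 against 6.26, 4.84 and 4.67. Both lay below the filter at 6.30 and were not tested, nor were both probe sets of Socs1, a feedback inhibitor. The 4 other listed inhibitors passed the filter, 3 with a difference below 0 and 1 above by the brightest probe set, and 0 had an unadjusted p under 0.05. Among them Socs3 had -0.84 (SE 0.425, unadjusted p = 0.0783 in limma).

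The receptor chain Ifngr1 had a difference of -0.19 (SE 0.212). The type I receptor chain Ifnar1 had 6 probe sets that disagreed, from -1.25 (SE 0.409, unadjusted p = 0.0131 in limma) to 0.09. Its brightest had 8.50, 7.58 and 7.86 in the probiotic and 8.66, 8.77 and 8.36 in the high-fat samples, a difference of -0.61 (SE 0.297, unadjusted p = 0.0673 in limma).

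Markers of other cell types were read beside the members. All 10 measured Kupffer cell and macrophage markers, of 12 listed, were lower in the probiotic group by their brightest probe set, with a median log2 difference of -0.40, and their summed intensity was 13340 to 16640 in the probiotic and 16340 to 21130 in the high-fat samples. All of them lay at or above the 72.2nd percentile of signal. Sums and intensities in this paragraph are deposited values before quantile normalization. On that scale high-fat sample 2, which gave the 21130, also had the highest hepatocyte marker sum (553400, against 269000 to 344900 in the other samples). Of 12 measured T and NK cell markers 7 passed the filter, 3 lower and 4 higher, and their summed intensity was 809.6 to 1280 against 1204 to 1363. The 3 neutrophil markers that passed were lower, with sums over the 6 measured of 333.3 to 559.7 against 772.4 to 1127. S100a9 gave the largest part of that sum in every sample, with mean intensities of 192.5 and 606.9, while Csf3r, below the filter, was higher in the probiotic group without overlap (55.03 against 17.4). Of 3 measured B cell markers 2 passed, both lower, with sums of 214.9 to 487.9 against 278.7 to 698.6. The 5 liver endothelial markers had 2 lower and 3 higher, and 0 of the 2 measured dendritic cell markers passed. The part of these cells, and of the Actb gap, in the lower values of Igtp, Irgm, Parp9, Dtx3l and Ifitm3 was not tested.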

How the data were processed

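The authors deposited 1 linear intensity per probe set and array. The software behind these intensities is not given in the sources used here. Per the labels' protocols, biotin-labelled cRNA was made from 8 ug of Trizol-extracted total RNA. The mean without the top and bottom 2% was equal on all arrays, but medians of log2(intensity + 16) spanned 0.617, so values were quantile normalized, which removes overall differences in distribution between groups. The 57 control probe sets were left out. Symbols came from the platform annotation (20826 probe sets with 1 symbol), updated through the RefSeq table of GRCr8. Probe sets at or above the 40th percentile of mean signal (6.30) were tested: 18625.

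Groups, taken from titles, were tested against each other in R 4.3.3 by limma 3.58.1 (lmFit, eBayes with trend, two-sided, Benjamini-Hochberg adjustment over all probe sets tested, threshold 0.05). Folds understate changes of dim probe sets. Members and lists were chosen with earlier results of these data known. Values per sample are given for members without overlap, the 10 of smallest p, the 5 of largest difference, the brightest of each role and the transcription factors. Isg15, Usp18 and Ifit2 were added after their values were seen. On simulated data for this comparison (18625 probe sets, 200 changed), recovery was 0.8% at a fold of 1.5, 18% at a fold of 2 and 73.6% at a fold of 4, with 6.8 false calls per run. The number of arrays limits the precision. Figures were drawn with matplotlib 3.10.9.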

Additional observations from a re-analysis of the deposited data

How the results depend on the processing

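In 17 alternatives (scaling, pseudocounts of 1 and 64, signal filter, variance model, array weights, replicate block, Actb gap, samples left out) 0 member probe sets passed the adjusted test, and 18 of 42 kept the sign of their difference in all alternatives in which they were tested, while 24 did not. The count of members lower at unadjusted p under 0.05, 6 as reported, was 0 on adjusting for the Actb gap (against 1.43% of all probe sets tested, from 3.86% as reported) and 2 when both sample 2 arrays were left out (against 1.97%), and 4 to 8 with single samples left out (against 2.17% to 5.61%, with 4 without probiotic sample 2 or high-fat sample 2). The count higher was 1 as reported, against 2.99% of all probe sets tested. It was 0 under median centring, the replicate block, adjusting for the Actb gap and leaving out both sample 2 arrays. With single samples left out it was 0 to 2. For these alternatives the share of all probe sets that were higher is not given here. Over all probe sets, 3 to 12 passed the adjusted test with single samples left out, against 4, 12 of them on leaving out probiotic sample 1 and 9 on leaving out high-fat sample 1. The median log2 difference of the members was -0.13 to 0.05 with single samples left out, 0.05 being without probiotic sample 2. Samples share only a number: the correlations of deviations in same-numbered samples were 0.144, 0.027 and 0.0774, not every sample correlated best with its own number, and the replicate block called 4 probe sets, with 6 members lower at unadjusted p under 0.05. The causes of these changes were not tested. The Actb gap itself did not overlap between groups. Counts of members past the adjusted test and of members without overlap were added to the alternatives after seeing the data.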
